A study of Homo sapiens with 6 samples.

Results

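The genes described here encode the nuclear part of the mitochondrial respiratory chain, together with ATP synthase. They were chosen by name, as the rows of the deposited table beginning with NDUFA, NDUFB, NDUFC, NDUFS or NDUFV and a number (complex I), SDHA to SDHD (complex II), UQCR (complex III), COX4 to COX8 (complex IV) and ATP5 (ATP synthase, also called complex V). The rule found 89 of the 20061 rows; for 81 of the 89 the authors give a test. The rows were 39 for complex I, 4 for complex II, 9 for complex III, 18 for complex IV and 19 for ATP synthase.

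The respiratory chain passes electrons from NADH and succinate to oxygen and pumps protons across the inner mitochondrial membrane, and ATP synthase uses the resulting gradient to make ATP. Most subunits are encoded in the nucleus and imported, while a small set of membrane subunits is encoded by mitochondrial DNA. Every complex except complex II is thus a product of both genomes. Promoters of the nuclear genes commonly carry sites for NRF1 and for GABP (also called NRF2), whose DNA-binding subunit GABPA is itself an ETS factor and reads a GGAA core similar to that read by ETS1.

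The cells were HEYA8, an established human ovarian cancer line whose source is labelled low grade serous carcinoma, and polyadenylated RNA was sequenced. Both groups carried a lentiviral short hairpin RNA (shRNA), stably expressed and held under puromycin with no other treatment: against luciferase in the control (shLuciferase, 3 samples) and against the transcription factor ETS1 in the other (shETS1, 3 samples). The labels do not say how many hairpin sequences were used, whether the cells were pools or clones, or whether samples of a group came from separate cultures. The comparison asks which transcripts differ when ETS1 is lowered.

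Each gene has 1 deposited level per group, without values per sample, in FPKM, a fragment count divided by transcript length and by library size. No spread between samples could therefore be given, depth is unknown, and each p and q below is the authors' own, which may reflect technical spread only. In bulk RNA, fewer cells with a transcript and less of it per cell cannot be told apart. The level of the targeted gene, ETS1, was 41.4 FPKM with the control hairpin and 17.9 FPKM with its own (56.9% lower), with a q of 0.00964 in the authors' deposited table. The epithelial keratins were abundant, with lower values in shETS1: KRT7 was at 1187 and 910 FPKM, KRT8 at 1913 and 1288 FPKM, and KRT18 at 2044 and 1498 FPKM. The Muellerian factor PAX8 was at 79.7 and 76.8 FPKM, whereas EPCAM was at 1.71 and 1.82 FPKM and the untested MUC16 at or near 0. Of 8 epithelial markers 7 were tested and none was called, with 2 higher and 5 lower, and the summed FPKM of the list was 5247 and 3804 (27.5% lower). Mesothelin (MSLN), at 17.9 and 26.5 FPKM, had an unadjusted p of 0.0309 in the authors' deposited table. None of 4 leukocyte and 4 adipocyte markers was abundant enough to be tested, and PTPRC had a listed value of 0 in each. Of the others, 1 of 5 fibroblast markers (COL1A1, 1.29 and 3.75 FPKM) and 1 of the 3 endothelial markers found (CDH5, 17.6 and 5.00 FPKM) were called, higher and lower in that order. Their part in the results below was not tested.

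Because ETS1 and GABPA read a similar core, the promoters of the genes were searched for it in RefSeq windows of GRCh38.p14 that run from 250 bases before to 50 bases after a transcript start. A window was matched by symbol for 69 of the 89 genes. The 7 letters CCGGAAG, on either strand, were found for 21 of the 69 genes (30.4%). Of all genes with a window, tested at a mean of at least 1 FPKM, 2029 had the letters and 6492 did not. By window, the letters were in 22 of 82 (26.8%), against 10.3% of all 35116 windows and 17.7% of the 12488 windows of such tested genes. Genes differ in their number of windows, so shares per window and per gene are not alike. The letters GCGCNTGCG, the core of the NRF1 motif, were in 30.5% of the windows (7.47% of all and 13.5% of those of tested genes), and the letters AAGATGGCG, which belong to the factor YY1, in 12.2% (1.75% and 3.83%). COX4I1 and COX4NB, which encodes no respiratory chain subunit, share the same ETS match, counted for both. No ETS match shared bases with an NRF1 or YY1 match. These shares describe letters, and say nothing about binding in these cells. A match was printed only where its whole 27-base window lies upstream of a start. This leaves out, for example, NDUFA13, COX6B1 and COX6A1, which are more abundant than some genes shown but have a match nearer the start. The windows below are for the 2 most abundant genes of each complex that meet this, and for ATP5J, whose deposited locus overlaps that of GABPA. Each is written 5′ to 3′ on the strand of the gene, with the 7 matching letters, or their reverse complement CTTCCGG, in capitals.
NDUFB7, chr19:14572074-14572100, minus strand, match beginning 24 bases upstream of a start: cctaaatgacCCGGAAGctgtgtctga
NDUFA1, chrX:119871775-119871801, plus strand, match beginning 47 bases upstream of a start: tccgtcgcttCTTCCGGagccgtacgt
SDHB, chr1:17054144-17054170, minus strand, match beginning 128 bases upstream of a start: acccgggaaaCCGGAAGccgcctccca
SDHD, chr11:112086786-112086812, plus strand, match beginning 77 bases upstream of a start: cgcctctcgaCTTCCGGttcacccagc
UQCRH, chr1:46303642-46303668, plus strand, match beginning 46 bases upstream of a start: gtgtgccgcaCTTCCGGccagatcgcc
UQCRQ, chr5:132866578-132866604, plus strand, match beginning 54 bases upstream of a start: atggtatctcCCGGAAGttacctcacg
COX8A, chr11:63974592-63974618, plus strand, match beginning 18 bases upstream of a start: agctccagaaCTTCCGGccagcgcagc
COX5B, chr2:97646015-97646041, plus strand, match beginning 37 bases upstream of a start: aagcccgcccCCGGAAGtccctcctgt
ATP5H (now ATP5PD), chr17:75047054-75047080, minus strand, match beginning 101 bases upstream of a start: cgggaagataCTTCCGGaaccagccct
ATP5A1 (now ATP5F1A), chr18:46098328-46098354, minus strand, match beginning 48 bases upstream of a start: aggggcagtaCTTCCGGgtcaggtggg
ATP5J (now ATP5PF), chr21:25735068-25735094, minus strand, match beginning 30 bases upstream of a start: gccaggggacCCGGAAGcacttaccct

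In the authors' deposited table no respiratory chain gene was called at a q of 0.05, in either direction: 0 of 81 tested, against 0.812% of all 11952 tested rows (0.544% higher in shETS1 and 0.268% lower). None reached an unadjusted p of 0.05 either, against 6.94% of all tested rows and 4.76% of the 3736 rows at a mean of at least 20 FPKM, where 76 of the 81 genes lie. Below an unadjusted p of 0.1 were 3 of 81 (NDUFA10, ATP5D and COX7A2), against 11.2%. The smallest p was 0.074 (NDUFA10) and the smallest q 0.836, and 75 of the 81 genes had a q of 0.99 or more. The transcripts were abundant: 50 of the 89 genes had a mean of at least 100 FPKM, which 4.94% of all rows reached. Among all rows at a mean of at least 20 FPKM, the smallest change with a p below 0.05 was 1.31-fold and the smallest called change was 1.83-fold. Every respiratory chain gene of this abundance had a fold change below the latter, and the absence of calls does not show that levels were equal.

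The fold changes of the set lay close to 0. The median log2 fold change (shETS1 over shLuciferase) of the 81 tested genes, all at a mean of at least 1 FPKM, was 0.02, and their quartiles were -0.09 and 0.16. Over all 10676 tested rows at that level the median was also 0.02 and the quartiles were -0.16 and 0.20. Higher values in shETS1 were seen in 45 of 81 genes (52.6% of all tested rows at that level). A difference of 1.2-fold or more, in either direction, was seen in 16 of 81 genes (19.8%) against 34% of all tested rows at a mean of at least 1 FPKM. Among the 76 genes at a mean of at least 20 FPKM it was 13 (17.1%), against 25.5% of such rows. At 1.5-fold or more it was 3 of 81, against 5.88%, and 2 of 76, against 2.49%. The 89 genes held 2.82% of summed FPKM in shLuciferase and 2.79% in shETS1, leaving out the 2 rows that the table marks as having too much data.

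The order of the levels was nearly the same in both groups. FPKM is per length, but size selection and shared reads can still weigh on comparisons between genes. Spearman's rho between the group levels of the 81 tested genes was 0.99, a description of 2 columns. The 20 most abundant genes were the same 20 in both groups, as were 7 of the 10 most abundant. The median level of the tested genes was 142 FPKM in shLuciferase and 155 FPKM in shETS1, against 10.9 and 10.9 FPKM for all tested rows at a mean of at least 1 FPKM. By complex it was 120 and 125 FPKM for complex I, 73.2 and 81.6 FPKM for complex II, 111 and 114 FPKM for complex III, 509 and 500 FPKM for complex IV, and 196 and 223 FPKM for ATP synthase. Complex IV thus had the highest median level and complex II the lowest in each group. A median is taken within its group and can fall on different genes, so such a pair is no fold change. For ATP synthase, 11 of 18 tested rows were lower in shETS1 and the summed FPKM was 8.83% lower. Over all 89 genes the summed FPKM was 2.12% lower.

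**Figure D1:**
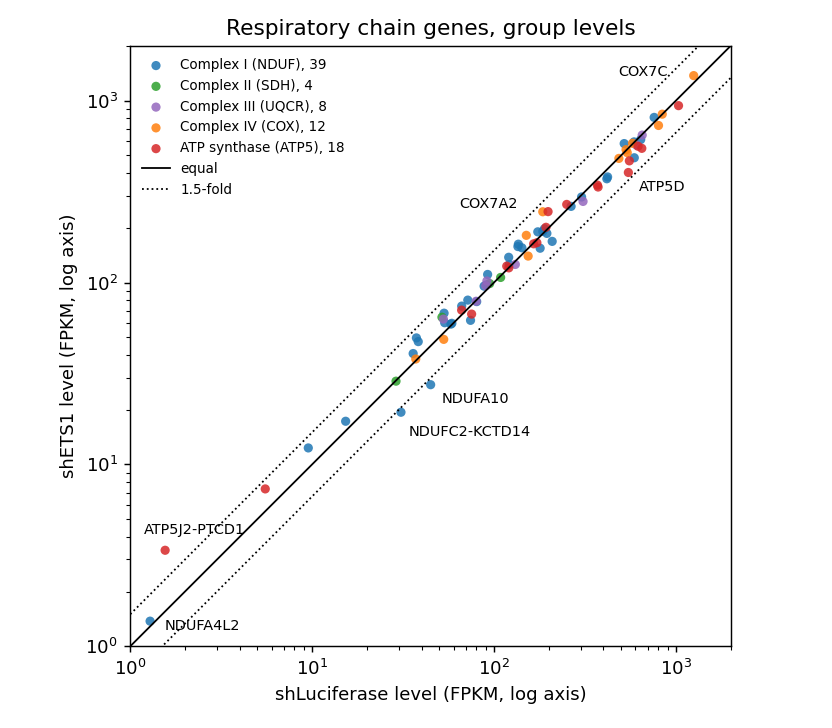
Level of each of the 81 tested genes in shLuciferase (horizontal) and shETS1 (vertical), both in FPKM on log axes, with 1 point per gene coloured by complex. The solid line marks equal levels and the dotted lines 1.5-fold; 3 points lie beyond the dotted lines, NDUFA10, NDUFC2-KCTD14 and ATP5J2-PTCD1, and the others follow the solid line from NDUFA4L2 at about 1 FPKM to COX7C above 1000 FPKM.

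Complex I, the NADH dehydrogenase, takes electrons from NADH. Of its 39 tested rows 26 had a higher value in shETS1 and 13 a lower one, with a median log2 fold change of 0.09, and their summed FPKM was 7297 in shLuciferase and 7277 in shETS1. The 7 nuclear core subunits, which carry the flavin and the iron-sulfur clusters, were split 3 higher and 4 lower (median -0.07). NDUFV1, which binds NADH and the flavin, was at 195 and 186 FPKM. The iron-sulfur subunit NDUFS7 was at 209 and 168 FPKM, a log2 fold change of -0.31 with p = 0.217 in the authors' deposited table, while NDUFV2 was at 92.3 and 111 FPKM. NDUFS1, the largest subunit of the peripheral arm, was the least abundant core gene at 15.3 and 17.3 FPKM. The other 31 genes, mostly accessory subunits that surround the core, had 23 higher and 8 lower values and a median of 0.10. No test separates core from accessory genes here.

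The most abundant rows of complex I were NDUFA13 (also called GRIM-19) at 760 and 809 FPKM, NDUFB9 at 641 and 611 FPKM and NDUFS5 at 589 and 593 FPKM, all accessory subunits. At the other end NDUFA5 was at 9.53 and 12.3 FPKM, so that accessory subunits of a single complex spanned a wide range of transcript levels per length in both groups. NDUFA10, an accessory subunit of the membrane arm, had the lowest fold change of the 81 genes: 44.8 FPKM against 27.4 FPKM, 38.8% lower in shETS1, with p = 0.074 and q = 0.836 in the authors' deposited table. Of the accessory genes without a paired row, NDUFA5 (log2 0.37, p = 0.166) and NDUFB5 (53.2 and 67.9 FPKM, log2 0.35, p = 0.144) had the highest fold changes in the authors' deposited table. NDUFA3, at 591 and 485 FPKM (log2 -0.28), followed NDUFS7 at the low end. NDUFA4, named for complex I but now placed in complex IV, was at 57.9 and 59.1 FPKM. Its hypoxia-inducible relative NDUFA4L2 was at 1.29 and 1.37 FPKM, and its locus overlaps that of SHMT2.

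The NDUFC2 locus (chromosome 11, 77726761 to 77791265, hg19) gave the complex I rows with the largest fold changes after NDUFA10. NDUFC2, an accessory subunit of the membrane arm, was at 37.4 and 49.6 FPKM, shLuciferase first. NDUFC2-KCTD14, a read-through transcript that joins NDUFC2 to the next gene, was at 30.8 and 19.4 FPKM, in the opposite direction. Both rows are given the same locus and share exons, so the split of reads between them is an estimate. Their summed level was 68.2 and 69.0 FPKM, a difference of 1.05%, with the read-through row holding 45.1% and 28.1% of it. KCTD14 itself was near 1 FPKM in both groups. The p of NDUFC2 was 0.243 and that of the read-through row 0.146 in the authors' deposited table. At ATP5J2, a membrane subunit of ATP synthase, the values went the other way. Its read-through row ATP5J2-PTCD1 had the highest fold change of the set (1.56 and 3.37 FPKM, log2 1.12, p = 0.585 in the authors' deposited table), whereas ATP5J2 was at 371 and 343 FPKM. Their sum was 372 and 347 FPKM, a change of -6.90%, and the read-through row made up 0.418% and 0.973% of it.

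Complex II, succinate dehydrogenase, links the citrate cycle to the chain and is the only complex with no mitochondrially encoded subunit. Its 4 genes lay on both sides of 0, with 2 higher and 2 lower and a median log2 fold change of 0.02. The flavoprotein SDHA was at 109 and 107 FPKM, the iron-sulfur subunit SDHB at 94.7 and 98.7 FPKM, and the membrane anchors SDHC at 28.9 and 28.7 FPKM and SDHD at 51.7 and 64.5 FPKM. SDHD had the highest fold change of the 4 (log2 0.32, p = 0.182 in the authors' deposited table). Catalytic subunits were thus above both anchors in each group.

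Complex III, the cytochrome bc1 complex, moves electrons from ubiquinol to cytochrome c. Of 8 tested genes 3 were higher and 5 lower, with a median of -0.01. The hinge protein UQCRH was at 653 and 647 FPKM and the small subunit UQCR10 at 606 and 570 FPKM. The core proteins UQCRC1 and UQCRC2 were at 309 and 279 FPKM and at 79.8 and 78.9 FPKM, and the Rieske iron-sulfur protein UQCRFS1 at 131 and 126 FPKM. UQCRB had the highest fold change, from 52.7 and 63.0 FPKM (log2 0.26, p = 0.305 in the authors' deposited table), followed by UQCRQ at 91.4 and 102 FPKM. CYC1, the cytochrome c1 of this complex, which the naming rule does not catch, was at 514 and 451 FPKM with p = 0.442 in the authors' deposited table.

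Complex IV, cytochrome c oxidase, reduces oxygen. Its 12 tested rows had 7 higher and 5 lower values, a median of 0.01 and sums of 5615 and 5721 FPKM. COX7C was the most abundant gene of the whole set at 1254 and 1373 FPKM, followed within the complex by COX4I1 at 842 and 843 FPKM and COX8A at 803 and 731 FPKM. COX7A2 had the highest fold change of the complex, at 185 against 245 FPKM (log2 0.40), with p = 0.0856 and q = 0.852 in the authors' deposited table. COX6C, at 151 and 182 FPKM, was the next (log2 0.27, p = 0.245 in the authors' deposited table). COX5A, at 154 and 140 FPKM, was the lowest (log2 -0.14). COX7A2L, a protein that joins complexes III and IV rather than a subunit of the oxidase alone, was at 52.9 and 48.7 FPKM. The row COX4NB, caught by its name, is an older symbol of EMC8, a subunit of an endoplasmic reticulum complex, and had a log2 fold change of 0.03 from 37.1 FPKM in shLuciferase.

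Several complex IV subunits exist as pairs, of which 1 form is found in most tissues and another mainly in muscle, lung or testis. In both groups the listed level of the common form was far above that of the other. A listed 0 need not mean that a transcript was absent, since the table holds no read counts. The widely expressed carrier SLC25A6 is also listed at 0 in both groups, but its deposited locus is on chromosome Y, unlike those of the genes below. COX4I1, at the level above, stood against COX4I2, a lung form, listed at 0 and 0.0641 FPKM. COX6A1 was at 532 and 538 FPKM and the heart and muscle form COX6A2 had a listed value of 0 in each. COX7A2, given above, compared with COX7A1, the muscle form, at 0.114 and 0.0649 FPKM. COX6B1 was at 577 and 583 FPKM and the testis form COX6B2 at 0.299 and 0.252 FPKM. COX7B was at 486 and 481 FPKM, with COX7B2 listed at 0 in both groups, as was COX8C beside COX8A. These 6 minor forms were not tested by the authors, nor were UQCRHL and ATP5L2, which are near copies of UQCRH and of ATP5L (165 and 163 FPKM); they make up the 8 untested rows. UQCRHL was at 0.142 and 0.277 FPKM and ATP5L2 at 0.231 and 0.141 FPKM, and reads of such copies are uncertain where they match the parent gene.

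ATP synthase was the complex with the lowest median, -0.04, with 7 rows higher and 11 lower. The size of that median depended on the setting: it was -0.14 over the 12 rows whose locus overlaps no other expressed row and -0.08 with the GC trend removed. Its summed FPKM was 5519 in shLuciferase and 5032 in shETS1 (8.83% lower). The F1 part holds the head that makes ATP and subunits of the rotor. Of its 5 genes 4 had a lower value in shETS1 and the sum was 13.2% lower, although none of the 5 passed the test. The beta and alpha genes of the head itself went in opposite directions. The catalytic beta subunit ATP5B was at 650 and 547 FPKM (log2 -0.25, p = 0.340 in the authors' deposited table) and the alpha subunit ATP5A1 at 193 and 201 FPKM. ATP5D, the delta subunit, had the lowest fold change of ATP synthase: 548 against 403 FPKM (log2 -0.44), with p = 0.0834 and q = 0.846 in the authors' deposited table. ATP5E, the epsilon subunit and the most abundant ATP synthase gene, was at 1035 and 939 FPKM, and ATP5C1, the gamma subunit of the rotor, at 172 and 166 FPKM. Of the stalk and membrane subunits, ATP5I was at 555 and 467 FPKM and ATP5H at 198 and 245 FPKM (log2 0.31, p = 0.191 in the authors' deposited table). ATP5J, at 118 and 123 FPKM, has a deposited locus that overlaps that of GABPA.

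Subunit c, which forms the rotating ring of ATP synthase, is encoded by 3 genes that differ in their import sequences and give the same mature protein. ATP5G2 supplied 58.5% of their summed FPKM in shLuciferase and 58.1% in shETS1, ATP5G1 35.3% and 34.6%, and ATP5G3 6.26% and 7.29%. In FPKM, ATP5G2 was at 620 and 562, ATP5G1 at 374 and 335 and ATP5G3 at 66.4 and 70.5, and the order of the 3 genes was thus the same in both groups. ATP5S and ATP5SL, caught by their names, are no subunits of the enzyme (they are now DMAC2L and DMAC2), and were at 5.52 and 7.33 FPKM and at 75.3 and 67.1 FPKM.

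**Figure D2:**
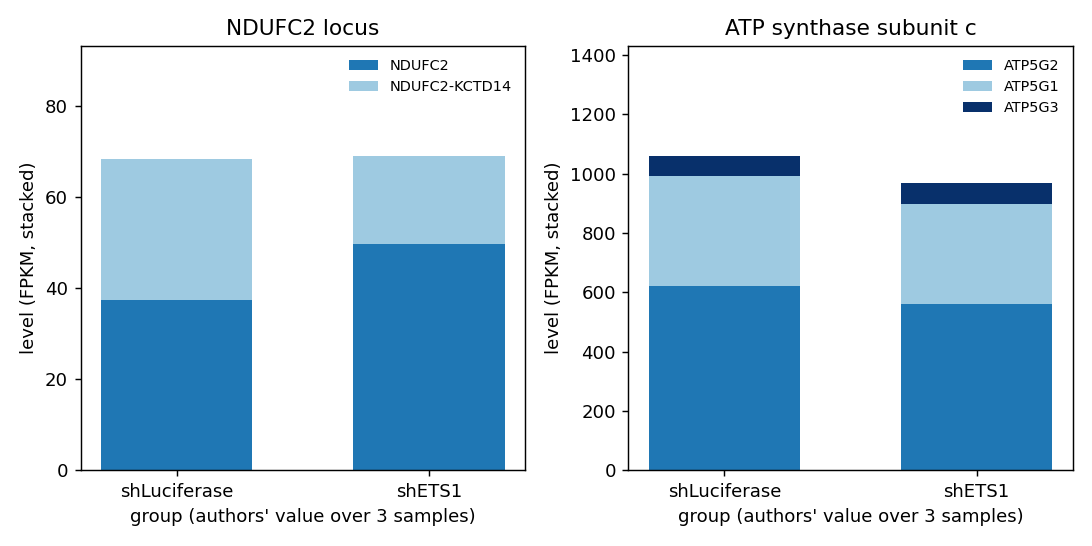
Stacked levels in FPKM (vertical axis from 0) in shLuciferase and shETS1, 1 bar per group value, for the rows of the NDUFC2 locus (left) and the 3 genes of ATP synthase subunit c (right). On the left the height is 68.2 and 69.0 FPKM while the read-through part goes from 45.1% to 28.1%; on the right ATP5G2 is the largest part in both groups.

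**Figure D3:**
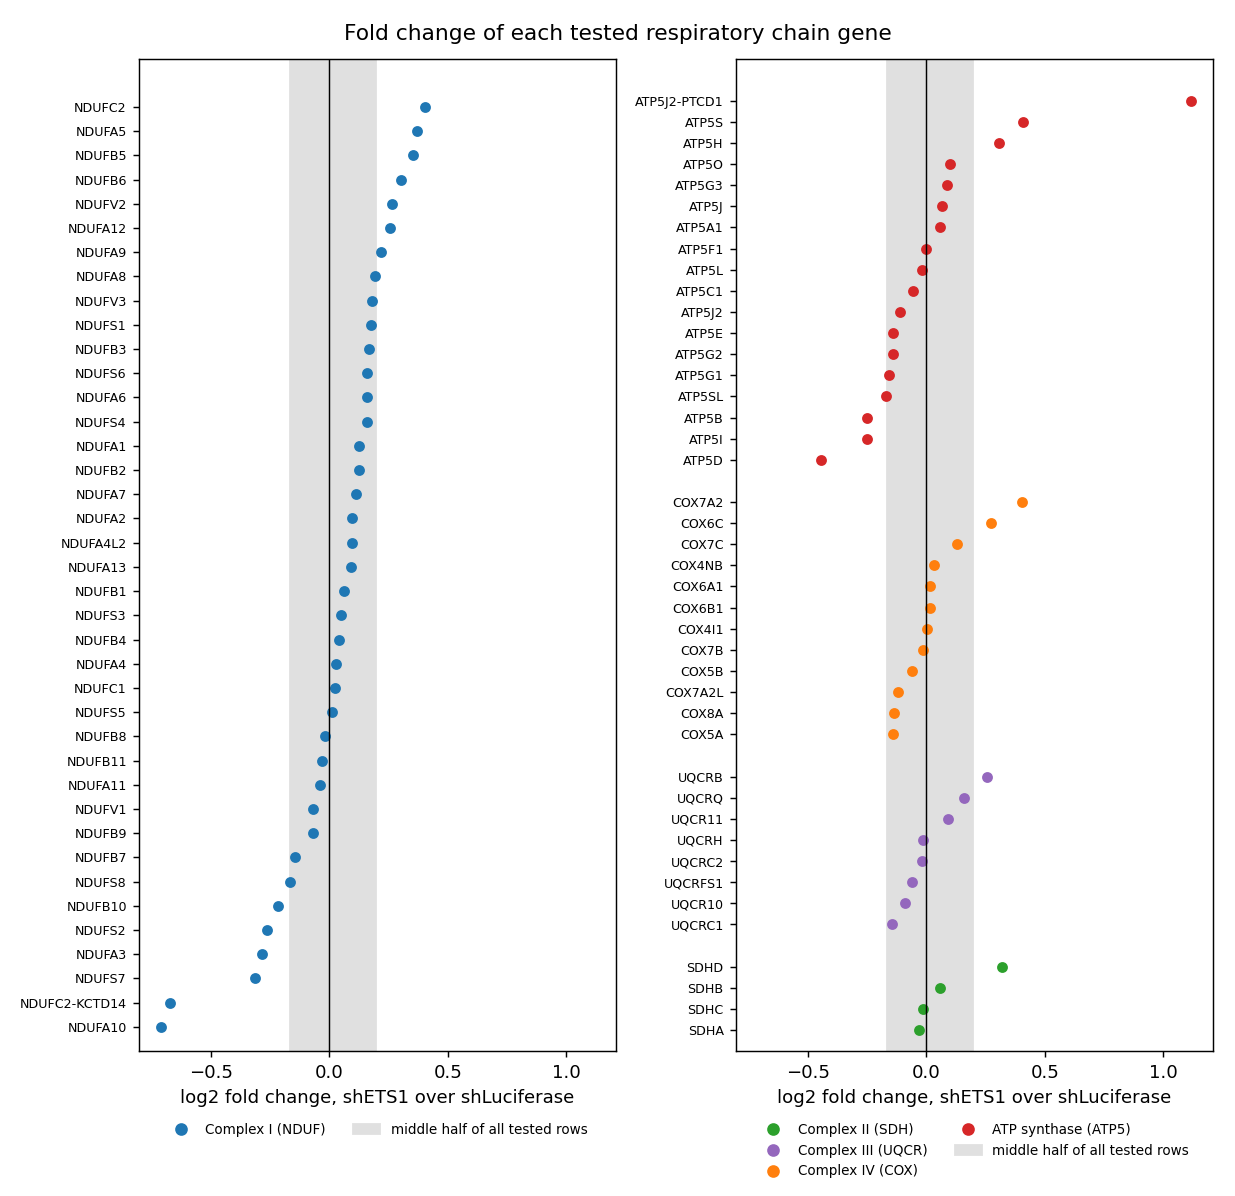
Horizontal axis, log2 of the shETS1 level over the shLuciferase level for the 81 tested genes, 1 point per gene, ordered within its complex; complex I is on the left and the others on the right. The grey band spans the quartiles of all tested rows at a mean of at least 1 FPKM, -0.16 to 0.20, and no point shown was called; NDUFA10 at -0.71 and ATP5J2-PTCD1 at 1.12 are the ends of the range.

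Within the set, the fold change moved with the base composition of the transcript. Across the 81 genes, each with a GC content from GENCODE 29, Spearman's rho of log2 fold change and GC content was -0.48, and over the 10421 tested rows at a mean of at least 1 FPKM with a value it was -0.47. Spearman's rho of log2 fold change and mean level was -0.40 across the 81 genes and -0.14 over those rows. With the GC trend removed it was -0.23 and 0.01, and the part of level was not tested. Points share libraries and are not independent. The 27 genes of lowest GC content (35.0% to 45.1%) had 19 higher values and a median of 0.13, against 0.17 for all tested rows in that range. The 27 of highest GC content (53.8% to 69.6%) had 9 higher values and a median of -0.07, against -0.13. NDUFA5, with the lowest GC content (35.0%), had a log2 fold change of 0.37, and ATP5D, with the highest (69.6%), -0.44. With the trend over all rows removed these became 0.07 and -0.29, that of COX7A2 went from 0.40 to 0.27 and that of NDUFS7 from -0.31 to -0.16. NDUFA10, of middling GC content (51.2%), stayed at -0.69. Of the F1 genes of ATP synthase, ATP5B went from -0.25 to -0.23 and ATP5E, with a GC content of 38.7%, from -0.14 to -0.36. The median of the 5 F1 genes went from -0.14 to -0.23. In ATP5E most of the transcript used is not coding. The GC content of ATP5E is that of a transcript of 3665 bases, of which 153 are coding. Its shift depends on that choice of transcript, as does that of NDUFA5, whose transcript has 5608 bases, of which 348 are coding. No other transcript was tried for any gene. The part of base composition in these differences was not tested.

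**Figure D4:**
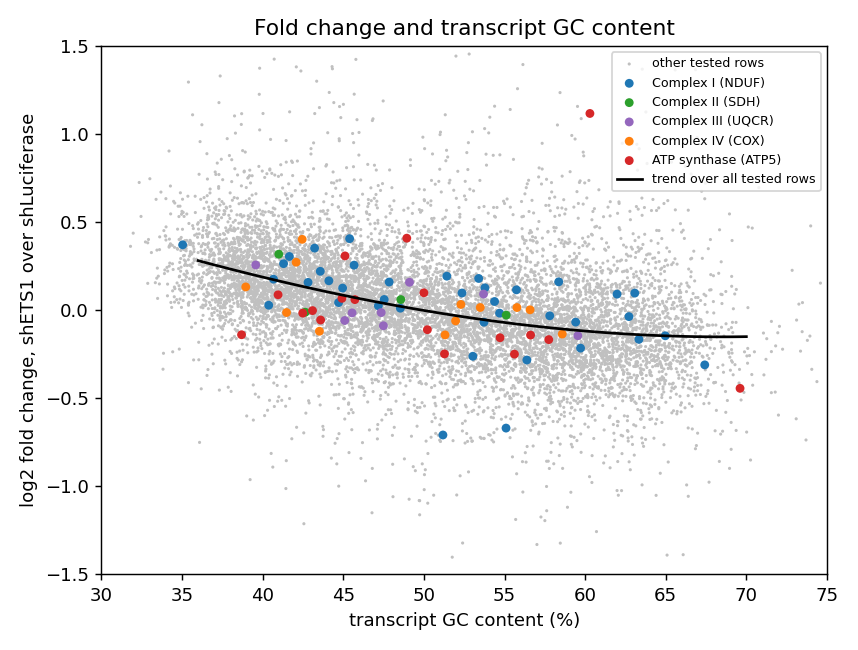
Log2 of the shETS1 level over the shLuciferase level (vertical axis) against transcript GC content in percent (horizontal axis); coloured points are the 81 respiratory chain genes by complex, grey points the other tested rows at a mean of at least 1 FPKM, and the line a cubic trend over all of them. The 19 grey points outside the axes are not drawn. The coloured points tend to lie lower at higher GC content (Spearman's rho -0.48), with wide scatter. NDUFA5 is at the left end (35.0%, 0.37) and ATP5D at the right end (69.6%, -0.44). ATP5J2-PTCD1 (60.3%, 1.12) is the highest point and NDUFA10 (51.2%, -0.71) the lowest.

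The fold changes of genes with and without the ETS letters in a promoter window overlapped, and their difference was not tested. The 21 tested genes with CCGGAAG had 15 higher values, a median log2 fold change of 0.05 and a range of -0.25 to 0.32, and the 44 without it had 20 higher values and a median of -0.01. Over all tested rows with a window the medians were 0.04 for 2029 genes with the letters and 0.01 for 6492 without. For the NRF1 letters the medians were 0.02 with (23 genes) and 0.01 without (42 genes). For the YY1 letters they were 0.07 with (9 genes, 6 higher) and 0.01 without (56 genes, 29 higher). None of these differences was tested. The genes whose windows are printed above lay between COX8A and NDUFB7 (log2 -0.14 and -0.15) and SDHD and ATP5H (0.32 and 0.31).

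Genes that regulate or assist the chain were looked at in lists. Of 16 regulators of mitochondrial biogenesis, 15 were tested, none was called, 6 were higher and 9 lower, and the median log2 fold change was -0.06. PPARGC1B, a coactivator of respiratory genes, was at 2.47 and 1.59 FPKM with an unadjusted p of 0.0306 and a q of 0.596 in the authors' deposited table. It was the single regulator under a p of 0.05, 1 of 15 tested, against 6.94% of all tested rows. Its relatives PPRC1 and PPARGC1A were at 35.0 and 27.5 FPKM and, untested, at 0.0389 and 0.0378 FPKM. The GABP subunits GABPA, GABPB1 and GABPB2 were at 3.29 and 4.11, 8.60 and 8.76, and 2.51 and 2.43 FPKM. NRF1 was at 5.49 and 5.13 FPKM, YY1 at 25.1 and 24.1 FPKM, and the nuclear receptor ESRRA at 32.7 and 27.3 FPKM. The factors of mitochondrial DNA upkeep and transcription gave TFAM at 21.6 and 25.3 FPKM, TFB1M at 5.20 and 6.22 FPKM, TFB2M at 5.64 and 6.92 FPKM, POLRMT at 49.3 and 42.0 FPKM, POLG at 19.3 and 16.0 FPKM, the helicase C10orf2 at 22.1 and 20.9 FPKM and SSBP1 at 117 and 134 FPKM.

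Assembly factors, which build the complexes without remaining in them, had 37 tested genes, none called and none under an unadjusted p of 0.05, with 22 higher and 15 lower and a median of 0.09. The most abundant were C12orf62 (now COX14) at 223 and 245 FPKM and NDUFAF3 at 84.0 and 91.6 FPKM. The 17 genes of the citrate cycle and pyruvate dehydrogenase, with no call and no p under 0.05, had a median of 0.02, with IDH3G at 167 and 159 FPKM and MDH2 at 164 and 166 FPKM. Of 20 genes for electron carriers, ubiquinone synthesis and adenine nucleotide transport, 19 were tested and none passed either threshold. CYC1, given above, and the ADP/ATP carrier SLC25A5, at 487 and 456 FPKM, were the most abundant. SLC25A6, a related carrier whose deposited locus is on chromosome Y, had a listed value of 0 in each group. None of 13 listed symbols of mitochondrially encoded subunits matched a row, so the subunits made inside the organelle are not analysed here.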

How the data were processed

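HEYA8 cells with a luciferase hairpin (3 samples) or an ETS1 hairpin (3 samples) were compared. The submitters' processing notes name Cufflinks 2.1.1, TopHat2 2.0.7, SAMtools 0.1.18, Bowtie2 2.0.6 and build hg19, with no order. Neither the annotation nor the library scaling is given in the sources used here. By their preparation, per the labels' protocols, cDNA was made with random hexamers from polyadenylated RNA, sheared and size-selected, with no step that marks strand, so overlapping genes may share reads. Of the 81 tested genes, 15 have a locus that overlaps another row at 1 FPKM or more. Selection by size can also weigh on short transcripts, and the genes described here had a median transcript length of 942 bases against 2978 for all tested rows at that level.

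Per the file headers, the authors deposited 1 FPKM value per gene and group, with a p-value, a q-value, a log2 fold change and a statistic, which is a score left unused. Adjusting the p-values by Benjamini-Hochberg across all tested rows returned the authors' q-values within 5.16e-07. The count or limma test planned for values per sample did not apply. Log2 ratios were computed from the FPKM values with no pseudocount and equalled those of the deposited table for the 85 genes with a finite value, within 8.21e-06. A call is a deposited q of at most 0.05. Medians use tested rows at a mean of at least 1 FPKM.

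All 89 symbols were matched to current ones. GC content and length came from GENCODE 29 (GRCh38) by symbol, taking the transcript with the longest coding sequence and, among ties, the longest transcript. They were found for all 81 tested genes and 97.6% of the 10676 tested rows at 1 FPKM. The GC trend was a cubic fit over those rows. Promoter windows came from RefSeq (GRCh38.p14); no coordinates were carried between builds. Computations used Python 3.11.15 and pandas 2.3.3, and the adjustment and the trend removal were tested on simulated data. The members, lists and tests were chosen with earlier results of these data known. Genes named are ETS1, the 3 most abundant and the 2 highest and 2 lowest fold changes of each complex, complex II, isoform sets, rows that are no subunit, untested rows, and, of the lists, regulators, genes below the unadjusted threshold and the 2 most abundant. Other genes named, the 1.2-fold class and the length of the promoter motifs were chosen after values were seen. Alternative settings are given in the closing section.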

Additional observations from a re-analysis of the deposited data

How the results depend on the processing

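Of 59 values recomputed under other settings, 58 stayed within 0.05 log2 units (medians) or 1.5 times (counts) of those reported. Many of the 59 could not move by that much, so the tally is no measure of stability. Stricter p counts began with no gene, centring shifts every median by the same 0.02, and some settings kept the same genes of a complex. No respiratory chain gene was called at a q of 0.1, with the adjustment made over rows at a mean of at least 1 FPKM, or at an unadjusted p below 0.05. The median over all genes of the set stayed between 0.01 and 0.02 in the 8 other settings, 1 of which (read-through rows added to the gene of their locus) was chosen after seeing the data. The median of ATP synthase went from -0.04 to -0.14 over the 12 genes whose locus overlaps no other expressed row, where fewer genes are counted, and to -0.08 with the GC trend removed. The median of complex IV, 0.01, was -0.01 without a filter on the level and -0.01 when centred on the median of all tested rows (0.02). Depth is unknown and no detection limit is given. No replicate could be left out, and no other test tool could be run, because the table holds group values. No paired analysis was possible because the columns carry no replicate numbers.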
